A study of Homo sapiens with 30 samples.

Results

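The 10 genes of the main cytosolic and mitochondrial heat shock proteins were followed through all 10 groups of the series: HSPA1A, HSPA1B, HSPA8, DNAJB1, HSPH1, HSP90AA1, HSP90AB1, HSPB1, HSPD1 and HSPE1. They are 10 of the 57992 genes in the deposited expression table, were chosen by name with earlier results of these data known, and all 10 had a row there. The study treated cultured tumor cells with Omomyc, a miniprotein made from the basic helix-loop-helix leucine zipper of MYC that inhibits MYC, and sequenced total RNA after depletion of rRNA. HCT116 is a colon carcinoma line in which MYC protein is stabilized, and Ramos is a Burkitt lymphoma line with a MYC translocation. HCT116 cells were left untreated or given 2 or 10 μM Omomyc for 6 or 24 h, and Ramos cells were left untreated or given 0.5 or 2.5 μM for 6 or 24 h, with 3 libraries per group and 30 libraries in all. The study's methods give the lower HCT116 dose as 2.5 μM; the 2 μM of the sample labels is used here. A time tag on the 24 h libraries also disagrees with their titles, and the titles were followed. For HCT116 the methods describe Omomyc entering the cells with ProteoJuice, a protein transfection reagent, and do not say whether the untreated cells got the reagent, so that Omomyc and reagent cannot be told apart in this line. No reagent is described for Ramos. The untreated libraries carry no time point and serve all 4 comparisons of their line. Nothing says whether replicates were separate cultures, so the p-values measure the spread between libraries, which may be technical.

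Heat shock proteins are chaperones: they bind unfolded or partly folded proteins, keep them from aggregating and help them fold. HSP70 proteins bind and release clients in a cycle driven by ATP, in which HSP40 proteins such as DNAJB1 bring the client and start ATP hydrolysis, and HSP110 (HSPH1) exchanges the nucleotide. HSP90 takes over clients such as kinases and hormone receptors at a late stage of folding, small heat shock proteins such as HSPB1 hold unfolded proteins without ATP, and HSPD1 (HSP60) with its lid HSPE1 (HSP10) folds proteins inside mitochondria. Many of these genes are induced by heat shock factor 1 (HSF1), which binds heat shock elements, arrays of GAA and TTC units in alternating order. Tumor cells often hold high levels of these chaperones.

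Values are RPKM, reads scaled to transcript length and to the depth of the library, so that levels may be compared between genes. The sum of RPKM over all genes was 593633 to 836899 in 14 HCT116 libraries and 783788 to 973736 in the 15 Ramos libraries. In the remaining HCT116 library, replicate 3 of 10 μM for 6 h, it was 1051041, and 1 noncoding RNA, RN7SL1, took 19.7% of it. That library correlated with its replicates at r = 0.973 and 0.977, against 0.990 to 0.996 for the other pairs of both lines, and the changes at 10 μM for 6 h are given with and without it. The sum of RPKM also differed by treatment. In HCT116 it was 593633 to 660769 in untreated libraries, 742468 or more at 6 h and 659047 to 729627 at 24 h. In Ramos it was 879661 to 973736 in untreated libraries and 783788 to 917132 in treated ones. The lines matched their labels. Of 6 epithelial markers, the summed RPKM was 1473 to 2345 in HCT116 and 0 to 1.94 in Ramos. Of 7 B cell markers, it was 1557 to 1714 in Ramos and 0.755 to 3.12 in HCT116, where 6 of the 7, CD22 being the exception, stayed below 0.5 in every library. The 10 heat shock genes together took 0.902% to 1.21% of the RPKM of all protein-coding genes in HCT116 libraries, 1.01% or more without that replicate, and 0.391% to 0.445% in Ramos libraries.

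In HCT116, 7 of the 10 genes were higher than in untreated cells after 24 h at either dose, while HSPD1 and both HSP90 genes did not pass the test. HSPA1A and HSPA1B, whose transcripts are 96.7% identical, both count among the 7. A gene was called when the Benjamini-Hochberg adjusted p of the limma test, run on log2(RPKM + 0.5) over every gene whose mean RPKM reached 0.5, was below 0.05. After 24 h at 2 μM, 7 genes were called higher and 0 lower, against 16.6% of all genes tested called higher and 10.8% called lower. The count at 10 μM for 24 h was again 7 higher and 0 lower, against 19.5% and 15.7%. After 6 h at 2 μM, 5 genes were called higher and 1, HSPA1B, lower, against backgrounds of 15.5% and 31.8%. None of the 10 was called at 10 μM for 6 h, against 8.84% of all genes higher and 21.2% lower. Without replicate 3 of that group, 5 were called higher and 0 lower, against 20.1% and 31.1% of all genes. In the 2 μM 6 h, 10 μM 6 h, 2 μM 24 h and 10 μM 24 h comparisons, the treated libraries lay wholly above or wholly below the untreated ones for 5, 4, 7 and 9 of the 10 genes, against 57.8%, 50.2%, 44.9% and 49.3% of all genes. The median log2 change of the 10 genes was 0.20, 0.06, 0.30 and 0.36 in the same order, and the median of all genes tested was −0.12, −0.11, 0.04 and 0.02. Without replicate 3 of 10 μM for 6 h, 8 of the 10 genes did not overlap untreated cells in that comparison, against 69.3% of all genes, and their median change was 0.22 beside −0.07. These 24 h counts depended on some of the settings. With the sum of RPKM made equal in all libraries they were 3 and 2 at 2 and 10 μM. With all groups in one fit the count at 2 μM was 2. Of the 52 member calls of all comparisons, 32 held with equal sums of RPKM, 50 with median-ratio scaling and 49 with equal protein-coding sums. All groups in one fit kept 39, and 37 of 39 without replicate 3 of 10 μM for 6 h. Scaling also set the background: of all genes called in those 4 comparisons, 32.7%, 29.4%, 60.6% and 55.3% were higher, and with equal sums of RPKM 6.76%, 4.29%, 23.0% and 20.4%; median-ratio scaling gave 50.6% and 50.1% at 6 h. In bulk RNA, a change in the level per cell and a change in the share of cells that make a transcript cannot be told apart. With 3 libraries against 3, the exact 2-sided permutation test for a single gene cannot go below p = 0.1, and that is its value for every member called against untreated cells except HSPB1 at 2 μM for 6 h, where it was 0.3.

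In Ramos only 2 of the genes were called against untreated cells, HSPA1B and DNAJB1, both higher and both at 6 h. HSPA1A, whose mean was below the filter in the Ramos comparisons against untreated cells, was not tested there, which leaves 9 genes. At 0.5 μM for 6 h, 2 of 9 were higher and 0 lower, against 13.8% and 9.73% of all genes. At 2.5 μM for 6 h the count was the same, against 17.3% and 10.7%. After 24 h at 0.5 μM limma called 0 of 9, and of all 13674 genes tested it called 2, or 0.0146%, all higher (0.00% lower), with 763 below an unadjusted p of 0.05. After 24 h at 2.5 μM it called 0 of 9, against 3.30% of all genes higher and 1.31% lower. In the 0.5 μM 6 h, 2.5 μM 6 h, 0.5 μM 24 h and 2.5 μM 24 h comparisons, the treated libraries lay wholly to one side of the untreated ones for 4, 5, 2 and 5 of the genes, against 41.4%, 44.7%, 11.5% and 27.4% of all genes. The median log2 change of the 9 genes was −0.03, 0.05, −0.0049 and 0.09 in that order, beside 0.02, 0.03, 0.02 and 0.05 over all genes. Of all genes called at 0.5 and 2.5 μM for 6 h and at 2.5 μM for 24 h, 58.7%, 61.8% and 71.6% were higher, and with equal sums of RPKM 79.8%, 85.2% and 97.4%; at 2.5 μM median-ratio scaling gave 50.7% at 6 h and 43.2% at 24 h.

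**Figure D1:**
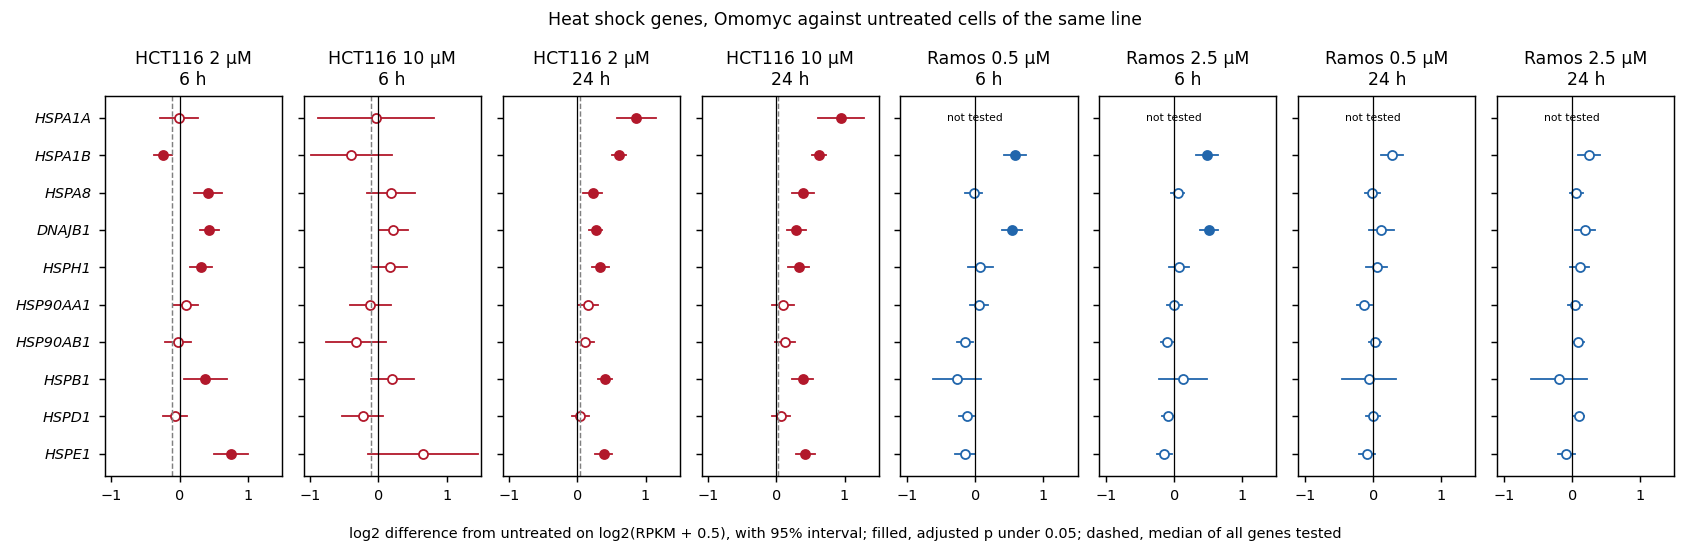
Log2 difference in log2(RPKM + 0.5) from untreated cells of the same line for each heat shock gene (vertical axis) in the 8 comparisons, with 95% intervals from limma; filled points passed an adjusted p of 0.05, and the dashed line marks the median of all genes tested. In HCT116 at 24 h 7 genes lie to the right of 0 with filled points, while in Ramos only HSPA1B and DNAJB1 at 6 h are filled.

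HSPA1A and HSPA1B encode the inducible cytosolic HSP70 and lie as neighbors on chromosome 6, HSPA1A at 31815464 to 31817946 and HSPA1B at 31827735 to 31830255 (GRCh38, both on the plus strand). Their transcripts, 2483 and 2521 bases, were 96.7% identical over 2393 aligned bases, and 72.6% of the 50-base stretches of HSPA1A also occurred in HSPA1B, so how the authors' counting split reads between them is uncertain. HSPA1B also overlaps a noncoding transcript on its strand, AL671762.1. Upstream of their starts both carry a pair of heat shock units, GAANNTTC, in the same surroundings. The 250 bases before the 2 starts were 94.4% identical. The stretches below are shown because both genes rose in HCT116 at 24 h, run from 200 to 81 bases before each start (RefSeq, GRCh38.p14), and mark the units in capitals.
HSPA1A, chr6:31815343-31815462, plus strand: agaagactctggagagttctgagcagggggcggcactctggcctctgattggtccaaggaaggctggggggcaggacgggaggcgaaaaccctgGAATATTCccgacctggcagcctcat
HSPA1B, chr6:31827538-31827657, plus strand: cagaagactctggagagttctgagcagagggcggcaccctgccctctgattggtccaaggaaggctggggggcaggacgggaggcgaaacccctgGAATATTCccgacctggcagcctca

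HSPA1B carried nearly all of the signal of the pair and went in opposite directions in HCT116 at 6 and 24 h. In untreated HCT116 cells it stood at 152, 150 and 146 RPKM. At 2 μM it was 132, 126 and 123 RPKM after 6 h and 226, 219 and 240 after 24 h. All 3 libraries lay below untreated cells at 6 h and all 3 above them at 24 h. The log2 change was −0.24 ± 0.0589 (SE, n = 3 per group, limma adjusted p = 0.00953) at 6 h and 0.61 ± 0.0473 (adjusted p = 0.000182) at 24 h. The 24 h level was 0.84 ± 0.0673 log2 units above that at 6 h (adjusted p = 0.000109). All genes tested in that 6 h comparison had a median change of −0.12, and with libraries scaled by median ratios the fall of HSPA1B was −0.11 and did not pass the test (adjusted p = 0.162).

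At 10 μM, HSPA1B read 146, 139 and 71.2 RPKM at 6 h, with the last value from the library that stands apart. All 3 lay below untreated cells, but the highest, 145.85, was nearly equal to the lowest untreated value, 145.92. The log2 change was −0.40 ± 0.256 (adjusted p = 0.267) and, without that library, −0.07 ± 0.0541 (adjusted p = 0.307). After 24 h it was 232, 231 and 229 RPKM, 54.2% above the untreated mean of 149 ± 3.21 (SD), a log2 change of 0.62 ± 0.0451 (adjusted p = 2.48e-05). The level at 24 h was above that at 6 h by 1.02 ± 0.252 log2 units (adjusted p = 0.0452), and by 0.69 ± 0.0713 (adjusted p = 0.000491) without replicate 3. With all 6 libraries that call was near the threshold, and leaving out replicate 1 of 6 h or any 1 of the 24 h libraries took it over (adjusted p of 0.0557 to 0.171).

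In Ramos, HSPA1B was higher at 6 h than in untreated cells and lower again at 24 h. Untreated cells had 17.9, 15.2 and 16.9 RPKM. At 6 h the values were 24.6, 24.8 and 26.2 at 0.5 μM and 24.1, 23.7 and 22.2 at 2.5 μM, all 6 above untreated cells. The log2 change was 0.58 ± 0.0703 (adjusted p = 0.000651) and 0.48 ± 0.0703 (adjusted p = 0.0017). At 24 h the values were 19.9, 20.7 and 19.8 at 0.5 μM and 20.4, 19.8 and 19.3 at 2.5 μM. These 6 libraries also lay above the 3 untreated ones, but the changes of 0.27 and 0.25 did not pass the test (adjusted p = 0.784 and 0.0804). From 6 to 24 h HSPA1B fell by 0.31 log2 units at 0.5 μM (adjusted p = 0.00256) and by 0.23 at 2.5 μM (adjusted p = 0.0101).

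HSPA1A was listed at 2.27, 2.87 and 2.96 RPKM in untreated HCT116 cells. At 24 h it was 5.24, 6.10 and 4.63 at 2 μM and 6.61, 4.41 and 6.12 at 10 μM, all above untreated cells. The log2 changes were 0.86 ± 0.126 (adjusted p = 0.00208) and 0.95 ± 0.151 (adjusted p = 0.00136). At 6 h it was 2.55, 2.64 and 2.79 at 2 μM and 4.57, 2.99 and 1.17 at 10 μM, where the replicates spread over untreated cells on both sides. The change at 10 μM for 6 h was −0.04 (adjusted p = 0.944) with replicate 3 and 0.40 ± 0.18 (adjusted p = 0.0943) without it. Ramos libraries listed it at 0.0789 to 0.757 RPKM. The sum of both genes, which does not depend on the split of reads between them, gave the calls of HSPA1B against untreated cells. Its mean was 152 RPKM in untreated HCT116 cells, 130 at 2 μM and 122 at 10 μM (146 without replicate 3) after 6 h, and 233 and 236 after 24 h. Its log2 change was −0.23 (adjusted p = 0.00997) at 2 μM for 6 h, where HSPA1A alone was not called, 0.62 (adjusted p = 0.000143) at 2 μM for 24 h and 0.63 (adjusted p = 2.23e-05) at 10 μM for 24 h. In Ramos the sum changed by 0.59 (adjusted p = 0.000625) and 0.49 (adjusted p = 0.00163) at 6 h.

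**Figure D2:**
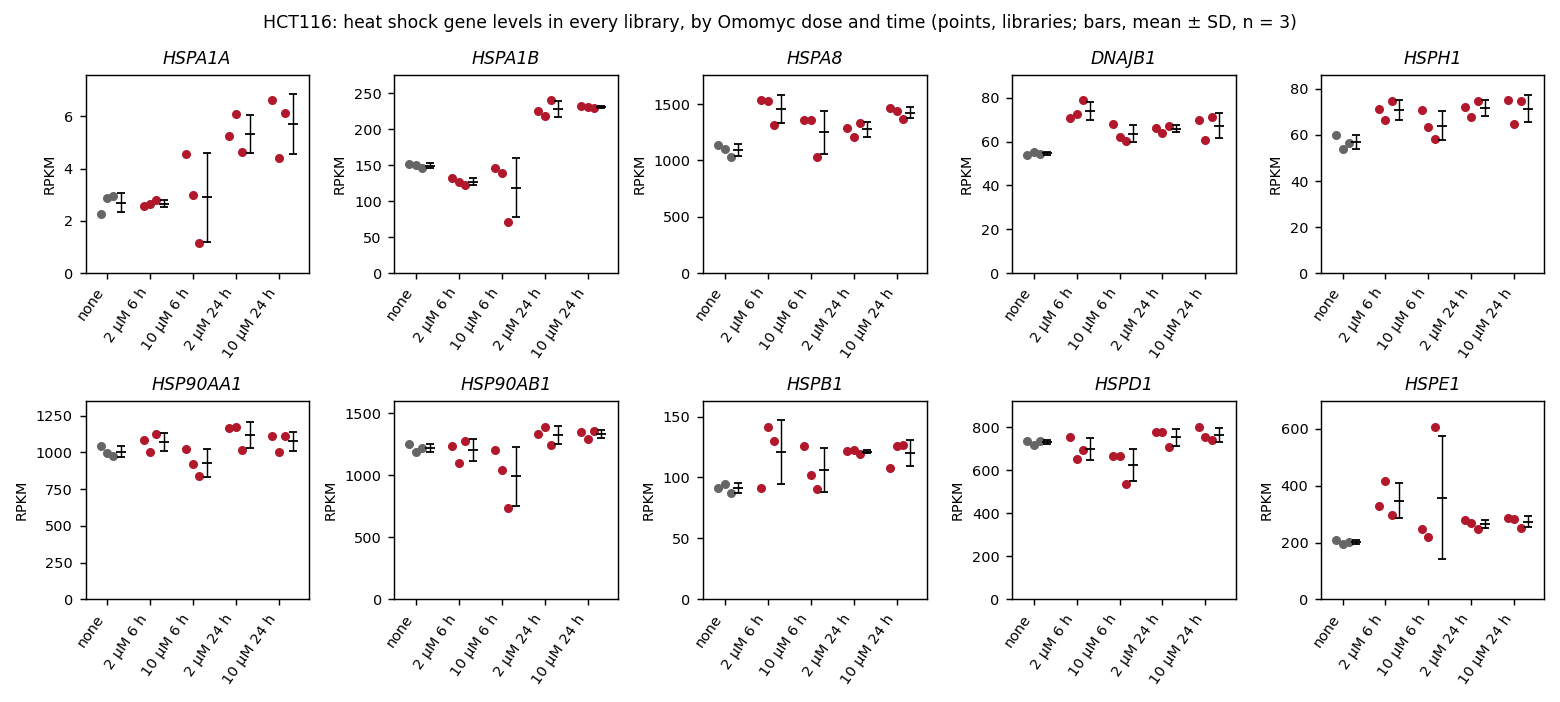
RPKM of each heat shock gene in the 15 HCT116 libraries (points, 3 per group; bars mark the group mean and lines 1 SD), with untreated cells at the left. HSPA1B falls at 2 μM for 6 h and stands at 219 to 240 RPKM in the 6 libraries of 24 h, and in HSPE1 and HSP90AB1 one library of 10 μM for 6 h lies far from its replicates.

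HSPA8 is the constitutive cytosolic HSP70, HSC70 (chromosome 11, 123057489 to 123063230, minus strand), and its introns host the small nucleolar RNAs SNORD14C, SNORD14D and SNORD14E. Its promoter holds the full heat shock element searched here, 3 alternating units, at 2 places, 230 and 55 bases before the start. The 30 bases around the nearer one are shown, with the units in capitals.
HSPA8, chr11:123062172-123062201, minus strand: ggcgggccccTTCTGGAAGGTTCtaagata

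In untreated HCT116 cells HSPA8 stood at 1140, 1098 and 1032 RPKM. At 2 μM for 6 h it rose to 1533, 1523 and 1315, a log2 change of 0.42 ± 0.0927 (adjusted p = 0.00538). The higher dose gave 1361, 1362 and 1031 at 6 h, a change of 0.19 (adjusted p = 0.38) that was 0.32 ± 0.0696 (adjusted p = 0.00576) without replicate 3. It read 1289, 1204 and 1335 at 2 μM and 1466, 1439 and 1368 at 10 μM after 24 h, all above untreated cells. The changes were 0.23 ± 0.0612 (adjusted p = 0.0249) and 0.39 ± 0.0718 (adjusted p = 0.00298). The first of these did not hold when any of 4 single libraries was left out (adjusted p of 0.0533 to 0.1). In Ramos HSPA8 kept to 710 to 797 RPKM in all 15 libraries, with log2 changes of −0.03 to 0.06 and no call.

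DNAJB1, the HSP40 partner of HSPA1A and HSPA1B (chromosome 19, 14514770 to 14529770, minus strand), was the member other than HSPA1B that was called against untreated cells in both lines. It overlaps TECR and MIR639 on the other strand, and whether the authors' counting used strand is not given in the sources used here. RefSeq gives it several starts, and the second has GAANNTTC 2 times within 77 bases before it. That stretch is shown from 143 to 24 bases before the start because DNAJB1 and HSPA1B were the genes that rose in Ramos.
DNAJB1, chr19:14518421-14518540, minus strand: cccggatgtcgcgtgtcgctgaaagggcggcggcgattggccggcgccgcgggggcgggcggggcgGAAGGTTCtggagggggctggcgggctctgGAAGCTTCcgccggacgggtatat

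DNAJB1 was at 54.0, 55.2 and 54.6 RPKM in untreated HCT116 cells and rose at 2 μM for 6 h to 70.6, 72.6 and 78.8, a log2 change of 0.43 ± 0.0625 (adjusted p = 0.000583). With 10 μM for 6 h it read 67.9, 62.2 and 60.5, with a change of 0.22 (adjusted p = 0.113), or 0.25 ± 0.0595 (adjusted p = 0.00888) without replicate 3. The 24 h values were 66.4, 64.1 and 67.3 at 2 μM and 69.8, 60.8 and 71.1 at 10 μM, changes of 0.27 (adjusted p = 0.00287) and 0.29 (adjusted p = 0.00597). All 12 treated HCT116 libraries lay above the 3 untreated ones. In Ramos it was 15.01, 15.3 and 16.6 RPKM untreated and rose at 6 h to 21.8, 22.9 and 23.8 at 0.5 μM and 22.0, 23.0 and 22.4 at 2.5 μM. The changes were 0.53 ± 0.0651 (adjusted p = 0.000707) and 0.51 ± 0.0583 (adjusted p = 0.000457). At 24 h it read 17.4, 18.3 and 15.3 at 0.5 μM and 17.2, 18.7 and 17.7 at 2.5 μM, changes of 0.11 and 0.18 that did not pass (adjusted p = 0.871 and 0.135). Between 6 and 24 h DNAJB1 fell by 0.42 log2 units at 0.5 μM (adjusted p = 0.00297) and by 0.32 at 2.5 μM (adjusted p = 0.00179).

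**Figure D3:**
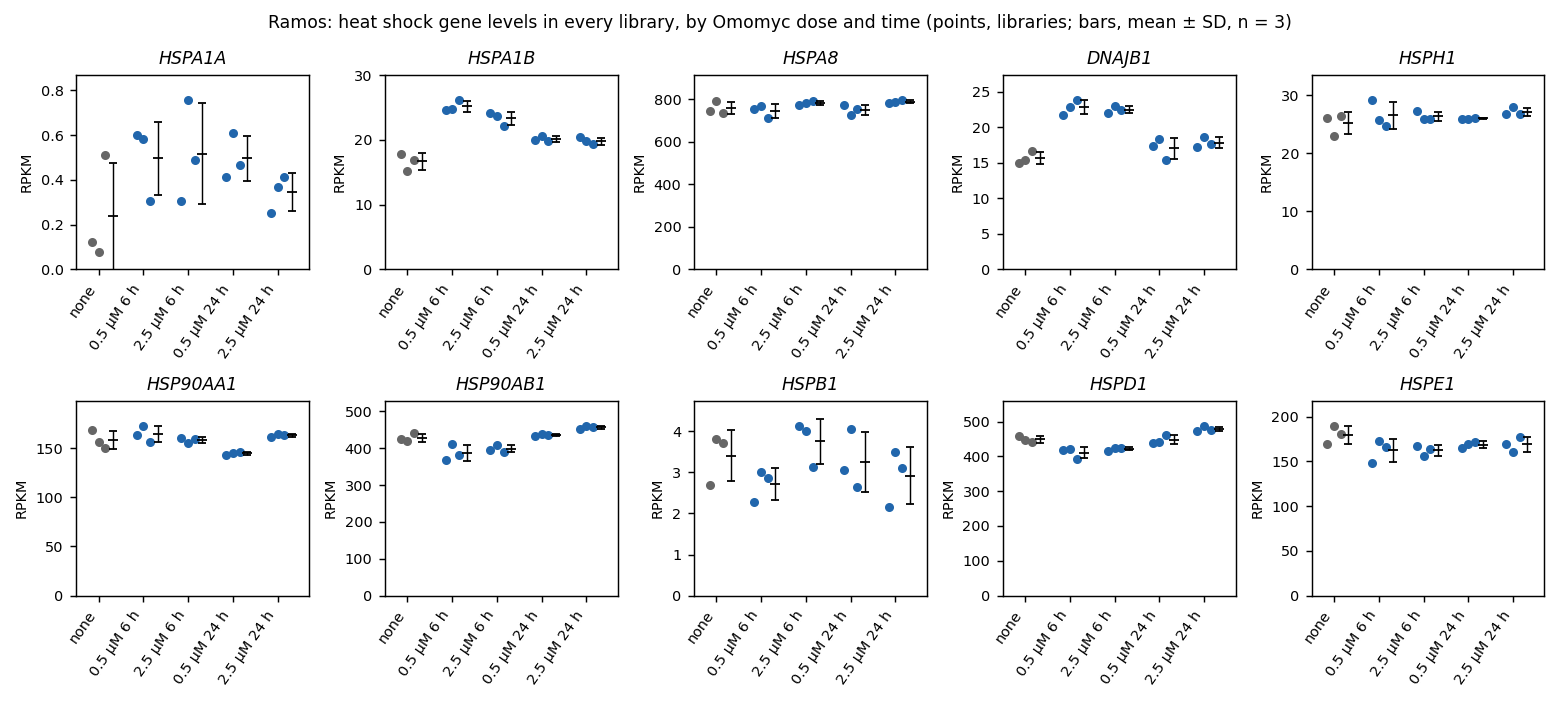
RPKM of each heat shock gene in the 15 Ramos libraries (points, 3 per group; bars mark the group mean and lines 1 SD), with untreated cells at the left. HSPA1B and DNAJB1 are highest in the 6 libraries of 6 h, HSPD1 and HSP90AB1 lie below untreated cells there, and HSPA1A stays below 1 RPKM in every library.

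HSPH1, the HSP110 that releases nucleotide from HSP70 (chromosome 13, 31134974 to 31162388, minus strand), read 60.0, 53.8 and 56.7 RPKM in untreated HCT116 cells. It was 71.1, 66.4 and 74.9 at 2 μM for 6 h, a log2 change of 0.31 ± 0.0696 (adjusted p = 0.00518) that became −0.02 with the sum of RPKM made equal in all libraries, a scaling under which the median of all genes was −0.42. The 24 h values were 72.3, 68.0 and 74.7 at 2 μM and 75.0, 64.6 and 74.6 at 10 μM, changes of 0.33 at both doses (adjusted p = 0.00378 and 0.0056). The 10 μM 6 h values of 70.7, 63.6 and 58.1 overlapped untreated cells (0.17, adjusted p = 0.266), and without replicate 3 the change was 0.24 (adjusted p = 0.0235). In Ramos the 15 libraries lay between 23.0 and 29.2 RPKM and no comparison was called.

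HSPB1, the small heat shock protein HSP27 (chromosome 7, 76302544 to 76304295, plus strand), stood at 91.7, 94.9 and 87.0 RPKM in untreated HCT116 cells. After 24 h it rose to 122, 123 and 120 at 2 μM and 108, 125 and 126 at 10 μM, log2 changes of 0.41 ± 0.0454 (adjusted p = 0.00068) and 0.39 ± 0.0687 (adjusted p = 0.00233). At 2 μM for 6 h it was 91.0, 142 and 130, so that replicate 1 lay among the untreated libraries. The test there passed narrowly (0.38 ± 0.14, adjusted p = 0.0485), and leaving out any 1 of 5 libraries took it over the threshold (adjusted p of 0.0882 to 0.143). Values at 10 μM for 6 h were 126, 102 and 90.3 (0.20, adjusted p = 0.289), and without replicate 3 the change was 0.31 (adjusted p = 0.0213). Ramos held only 2.16 to 4.12 RPKM.

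HSPE1 and HSPD1, the mitochondrial chaperonin pair, lie head to head on chromosome 2, HSPE1 at 197499994 to 197503457 on the plus strand and HSPD1 at 197486581 to 197516737 on the minus strand, and overlap each other in the annotation. The readthrough gene HSPE1-MOB4 overlaps HSPE1 on the same strand. In RefSeq the start of HSPE1 is 105 bases from the first start of HSPD1, and their promoter windows share 204 bases. In the shared part stands 1 canonical MYC E box, CACGTG, 22 bases before the start of HSPE1 and 88 before that of HSPD1 on the other strand. None of the other 8 genes held one in the window searched. The 30 bases around it are shown with the E box in capitals.
HSPE1, chr2:197500345-197500374, plus strand: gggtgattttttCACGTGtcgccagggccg

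HSPE1 rose in HCT116 while HSPD1 was not called in any comparison between HCT116 groups. Untreated cells had 210, 196 and 202 RPKM of HSPE1. At 2 μM for 6 h it was 330, 415 and 295, 70.9% above the untreated mean, a log2 change of 0.76 ± 0.112 (adjusted p = 0.000656). The 24 h values were 279, 268 and 249 at 2 μM and 286, 281 and 250.1 at 10 μM, changes of 0.38 ± 0.0533 (adjusted p = 0.00177) and 0.42 ± 0.0623 (adjusted p = 0.000928). At 2 μM the level at 24 h was below that at 6 h by a log2 change of −0.37 ± 0.118 (adjusted p = 0.031), which did not hold without any 1 of the 24 h libraries (adjusted p of 0.0553 to 0.0977). At 10 μM for 6 h HSPE1 read 249, 218 and 607, where the last value is from the library with the high RN7SL1 share. The change was 0.66 ± 0.348 (adjusted p = 0.188), and 0.20 ± 0.0701 (adjusted p = 0.0435) without it.

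HSPD1 stood at 737, 719 and 734 RPKM in untreated HCT116 cells, at 752, 651 and 694 after 6 h and 778, 775 and 707 after 24 h at 2 μM, and at 666, 668 and 537 after 6 h and 802, 753 and 739 after 24 h at 10 μM. The change at 10 μM for 6 h was −0.23 (adjusted p = 0.204), and −0.13 (adjusted p = 0.0896) without replicate 3. The ratio of HSPE1 to HSPD1 was 0.278 ± 0.00618 (SD, n = 3) in untreated HCT116 cells, 0.501 ± 0.119 at 2 μM for 6 h, 0.352 ± 0.00672 at 2 μM for 24 h and 0.356 ± 0.0178 at 10 μM for 24 h. At 10 μM for 6 h it was 0.374, 0.327 and 1.13. All 12 treated libraries lay above the 3 untreated ones, with an exact permutation p of 0.1 for each group, the smallest that 3 against 3 allows. In Ramos the ratio was 0.401 ± 0.0284 untreated and 0.354 to 0.395 in the treated groups, with overlap in each (exact permutation p of 0.2 to 0.7).

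HSPE1 was among the genes whose level moved with the composition of the libraries. Over the 15 HCT116 libraries its log2 level and the log2 sum of RPKM had a Pearson r of 0.817, and 0.609 without replicate 3 of 10 μM for 6 h, while HSPD1 had −0.842 and −0.645. The part of library composition in the HSPE1 result was not tested. For the other 6 genes called at 24 h the same r over 15 libraries was −0.632 for HSPA1B, −0.464 for HSPA1A, 0.0423 for HSPH1, 0.114 for HSPA8, 0.169 for HSPB1 and 0.359 for DNAJB1. Without that library it was −0.296, −0.0425, 0.436, 0.736, 0.639 and 0.697 in the same order, so that HSPA8, DNAJB1 and HSPB1 were then above HSPE1. These are descriptions over libraries that share groups.

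**Figure D4:**
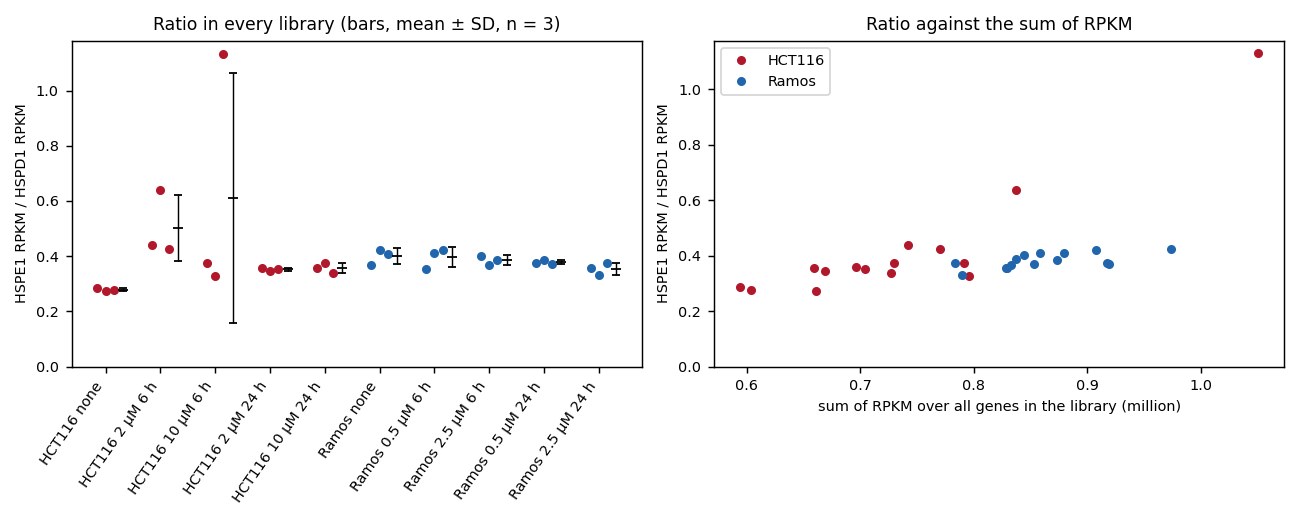
Ratio of HSPE1 to HSPD1 RPKM in each of the 30 libraries by group (points; bars mark the group mean). Every treated HCT116 library lies above the 3 untreated ones at 0.278 on average, 1 library of 10 μM for 6 h reaches 1.13, and the Ramos groups overlap.

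In Ramos, HSPE1 ranged from 148 to 189 RPKM and was not called. HSPD1 stood at 459, 446 and 440 RPKM in untreated Ramos cells and at 418, 421 and 393 and 416, 425 and 423 after 6 h at 0.5 and 2.5 μM. All 6 lay below untreated cells, but the changes of −0.13 and −0.09 did not pass the test (adjusted p = 0.0782 and 0.103). After 24 h it was 439, 440 and 462 at 0.5 μM and 474, 486 and 476 at 2.5 μM. At 2.5 μM the level rose by 0.18 log2 units from 6 to 24 h (adjusted p = 0.00232).

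HSP90AA1 and HSP90AB1 encode the cytosolic HSP90 proteins, HSP90AA1 the inducible one (chromosome 14, 102080738 to 102139699, minus strand, with WDR20 on the other strand) and HSP90AB1 the constitutive one (chromosome 6, 44246166 to 44253888, plus strand). The second RefSeq start of HSP90AA1 carries a 3-unit heat shock element 88 bases before it. It is shown, with its units in capitals, because HSP90AA1 was not called against untreated cells in either line; of the other 3 members with such an element, HSPD1 and HSP90AB1 were not called there either and HSPA8 was called in HCT116.
HSP90AA1, chr14:102087112-102087141, minus strand: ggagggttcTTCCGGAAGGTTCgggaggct

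HSP90AA1 lay between 838 and 1175 RPKM in the 15 HCT116 libraries, with log2 changes of −0.12 to 0.15 and no call. The lowest of these, at 10 μM for 6 h, was −0.05 without replicate 3. HSP90AB1 was 1256, 1191 and 1219 in untreated HCT116 cells, and the lowest value of the line, 734, was in replicate 3 of 10 μM for 6 h, beside 1201 and 1045 in its replicates. The change in that group was −0.33 (adjusted p = 0.228), and −0.12 (adjusted p = 0.215) without replicate 3. In Ramos HSP90AB1 read 425, 420.5 and 441 untreated and 368, 411 and 382 and 397, 409 and 391 after 6 h at 0.5 and 2.5 μM, all 6 below untreated cells (−0.15 and −0.11, adjusted p = 0.0688 and 0.077). After 24 h it was 432, 439 and 437 at 0.5 μM and 453, 460 and 457 at 2.5 μM. From 6 to 24 h it rose by 0.17 log2 units at 0.5 μM (adjusted p = 0.0299) and by 0.20 at 2.5 μM (adjusted p = 0.00204), the opposite direction from HSPA1B and DNAJB1 in the same libraries. The call at 0.5 μM did not hold without any 1 of 5 libraries (adjusted p of 0.0545 to 0.0901). HSP90AA1 fell by 0.18 from 6 to 24 h at 0.5 μM (adjusted p = 0.0169), from 164, 172 and 157 to 143, 145 and 146 RPKM, and without replicate 2 of 6 h the adjusted p was 0.0775. At 2.5 μM for 24 h it was 161, 164 and 163, higher than at 0.5 μM by 0.17 log2 units (adjusted p = 0.0252), which did not hold without any 1 of 5 libraries (adjusted p of 0.0536 to 0.117).

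Set side by side by time, at 2 μM in HCT116 2 genes (HSPA1A and HSPA1B) were higher and 1 (HSPE1) lower at 24 than at 6 h, against 30.9% and 9.85% of all genes. At 10 μM 1 was higher (HSPA1B) and 0 lower, against 5.80% and 2.06%. In Ramos 1 of 9 was higher and 3 lower at 0.5 μM, against 11.9% and 13.5%, and 2 were higher and 2 lower at 2.5 μM, against 12.7% and 10.4%. Without replicate 3 of 10 μM for 6 h, HSPA1B remained the 1 gene called at 10 μM, against 16.8% of all genes higher.

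Few differences between doses were called. In HCT116 limma called 0 of 10 between 10 and 2 μM at 6 h, where 0 of 14601 genes passed and 1242 had an unadjusted p under 0.05, and 0 of 10 at 24 h, against 0.180% of all genes called either way. For HSPA1B at 24 h the 95% interval of the log2 difference was −0.11 to 0.14. For HSPA8 it was −0.02 to 0.33, with all 3 libraries of 10 μM above those of 2 μM. At 6 h the difference was −0.17 (−0.75 to 0.41) for HSPA1B and −0.10 (−0.91 to 0.71) for HSPE1. Without replicate 3 of 10 μM, 0 of 10 were again called, against 0.639% of all genes, and 3900 genes had an unadjusted p under 0.05. HSPA1B was then higher at 10 μM by 0.17 (−0.03 to 0.36), the opposite sign, and HSPE1 lower by a log2 difference of −0.56 ± 0.146 (−0.89 to −0.23, adjusted p = 0.0778). In Ramos limma called 0 of 10 at 6 h, against 0.429%, with intervals of −0.22 to 0.01 for HSPA1B and −0.14 to 0.09 for DNAJB1. At 24 h HSP90AA1 was the 1 gene of 9 called, against 2.39% of all genes called higher.

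The lines differed in their levels of these genes before treatment. All 10 were higher in untreated HCT116 than in untreated Ramos cells by the limma test, against 45.7% of all genes called higher and 39.0% called lower. For all 10 the untreated HCT116 libraries lay wholly above the untreated Ramos libraries. Full separation was common: between the untreated libraries of the lines, 85.6% of all genes tested did not overlap, counting both directions. The sum of the 10 genes was 4605 ± 126 RPKM (SD, n = 3) in HCT116 and 2036 ± 24.9 in Ramos. The ratio of the means was 26.8 for HSPB1, 11.4 for HSPA1A, 8.97 for HSPA1B and 6.34 for HSP90AA1. It was 3.49 for DNAJB1, 2.85 for HSP90AB1 and 2.25 for HSPH1. HSPD1, HSPA8 and HSPE1 were the closest, at 1.63, 1.44 and 1.13, the last with an adjusted p of 0.0145 that was 0.054 without replicate 1 of untreated HCT116. In untreated HCT116 cells the order of the levels began with HSP90AB1 (1222 RPKM), HSPA8 (1090) and HSP90AA1 (1005), of which the last 2 overlapped between replicates, and in Ramos with HSPA8 (759), HSPD1 (449) and HSP90AB1 (429), of which the last 2 also overlapped. The line and any difference in handling between the experiments cannot be told apart.

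The response to the closest doses, 2 μM in HCT116 and 2.5 μM in Ramos, was compared between the lines with an interaction term. At 6 h, 2 genes had a higher and 1 a lower change in HCT116 than in Ramos, against 12.2% and 28.4% of all genes. HSPA1B, which fell in HCT116 and rose in Ramos, differed by −0.71 ± 0.0846 log2 units (adjusted p = 8.43e-05). HSPE1 differed by 0.90 ± 0.139 (adjusted p = 0.000431) and HSPA8 by 0.37 ± 0.0914 (adjusted p = 0.00776), a difference that was −0.11 with the sum of RPKM made equal. For DNAJB1 the difference was −0.07 with a 95% interval of −0.24 to 0.09. At 24 h, 2 genes differed, both with the larger change in HCT116, against 6.81% of all genes with a larger and 9.51% with a smaller one. These were HSPE1 (0.47 ± 0.0787, adjusted p = 0.00359) and HSPA1B (0.36 ± 0.0792, adjusted p = 0.012). Both calls were lost with all groups in one fit (adjusted p = 0.354 and 0.300), held there without replicate 3 of 10 μM for 6 h (adjusted p = 0.0116 and 0.00123), and were lost with equal sums of RPKM, where the differences were 0.11 and 0.0064. The doses, the transfection reagent and the line cannot be told apart in these comparisons.

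The promoter windows ran from 250 bases before to 50 after each RefSeq start, and a motif was counted only if it began before the start. The 3-unit heat shock element on either strand (GAANNTTCNNGAA or TTCNNGAANNTTC) was found in 4 of the 10 genes, HSPD1, HSP90AB1, HSPA8 and HSP90AA1, and in 0.456% of the 35116 windows of all genes. The unit pair GAANNTTC, which the 3-unit element contains, was found in 8 of the 10 and in 5.86% of windows, and the pair TTCNNGAA in 4 of the 10 and in 6.76%. The E box was found in 6.48% of windows. HSPH1 held none of these motifs by that count. The 10 genes have 16 windows because some have several starts, so that their shares are not strictly comparable with those per window.

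A further 4 lists of other genes of the pathway, fixed with earlier results of these data known, were read in the same fits. Their counts were not taken under other scalings. Of all genes called at 10 μM for 24 h in HCT116, 55.3% were higher, and 20.4% with equal sums of RPKM. At 10 μM for 24 h in HCT116, where 19.5% of all genes were called higher and 15.7% lower, 8 of 15 HSF and stress response partners (53.3%) were called higher and 1 lower, with a median of 0.20 beside 0.02 over all genes. SERPINH1, a collagen chaperone of the endoplasmic reticulum, had the lowest adjusted p of this list (higher by 0.98, adjusted p = 1.26e-05). CACYBP was higher by 0.29 (adjusted p = 0.00143) and IER5 fell by 0.34 (adjusted p = 0.00265). Of 16 co-chaperones of HSP90 and HSP70, 7 (43.8%) were higher and 2 lower. STIP1, the HOP adaptor that joins HSP70 to HSP90, rose by 0.29 (adjusted p = 0.00113), the immunophilin FKBP4 by 0.27 (adjusted p = 0.00261), and FKBP5 fell by 0.41 (adjusted p = 0.00146). Of 17 other heat shock protein family genes tested, 5 (29.4%) were higher and 2 lower, with DNAJA4 at 0.54 (adjusted p = 0.000773). Of 16 genes of mitochondrial protein folding, 4 (25.0%) were higher, nearer to the share of all genes, and 1, GRPEL2, lower (−0.41, adjusted p = 0.0031).

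At 2 μM for 24 h, against 16.6% of all genes higher and 10.8% lower, the same lists gave 5 higher and 2 lower of 15 stress response partners, 5 and 1 of 16 co-chaperones, 2 and 1 of 17 family genes and 1 and 1 of 16 mitochondrial genes. SERPINH1 was higher by 0.65 (adjusted p = 0.00205) and BAG3, an HSP70 exchange factor, by 0.38 (adjusted p = 0.00224). At 6 h the calls went both ways. At 2 μM, against 15.5% of all genes higher and 31.8% lower, they were 4 higher and 4 lower of 15 stress response partners, 2 and 3 of 16 co-chaperones, 5 and 4 of 17 family genes and 3 and 4 of 16 mitochondrial genes. The ribosome-associated DNAJC2 rose by 0.65 (adjusted p = 8.93e-05), DNAJA1, the cytosolic HSP40, by 0.42 (adjusted p = 0.000784), and the HSP110 relative HSPA4L fell by 0.62 (adjusted p = 0.000285). With 10 μM for 6 h, 1 higher and 4 lower, 0 and 3, 1 and 3, and 0 and 2 were called in the same order of lists, against 8.84% and 21.2%. Without replicate 3 they were 1 and 7, 2 and 5, 4 and 6, and 1 and 7, against 20.1% and 31.1%.

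In Ramos at 6 h, 13.8% of all genes were called higher and 9.73% lower at 0.5 μM, and 17.3% and 10.7% at 2.5 μM. The co-chaperones had 5 of 16 higher and 1 lower at either dose, led by the phosphatase PPP5C, higher by 0.33 at 0.5 μM (adjusted p = 0.00162) and by 0.41 at 2.5 μM (adjusted p = 0.000293). Stress response partners had 2 of 13 higher and 2 lower at either dose, and HMOX1, heme oxygenase, fell by 0.88 at 0.5 μM (adjusted p = 0.0115) and by 0.70 at 2.5 μM (adjusted p = 0.0404). Family genes had 2 higher and 2 lower of 13 at 0.5 μM and 0 and 2 at 2.5 μM, with DNAJB6 lower by a log2 change of −0.44 (adjusted p = 0.00122) and −0.47 (adjusted p = 0.000666) and HSPA4 by −0.42 (adjusted p = 0.00357) and −0.35 (adjusted p = 0.00756). Mitochondrial genes had 2 and 2 of 16, then 4 and 2, with the scaffold PHB higher by 0.32 and 0.34 (adjusted p = 0.00127 and 0.000451). At 24 h no gene of the 4 lists was called at 0.5 μM, where only 2 of all 13674 genes tested (0.0146%) were called. At 2.5 μM, against 3.30% of all genes higher and 1.31% lower, 3 co-chaperones, PTGES3, BAG1 and FKBP4, were higher by 0.23, 0.23 and 0.21 (adjusted p = 0.0269, 0.027 and 0.0339), as was PHB by 0.16 (adjusted p = 0.0397).

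**Figure D5:**
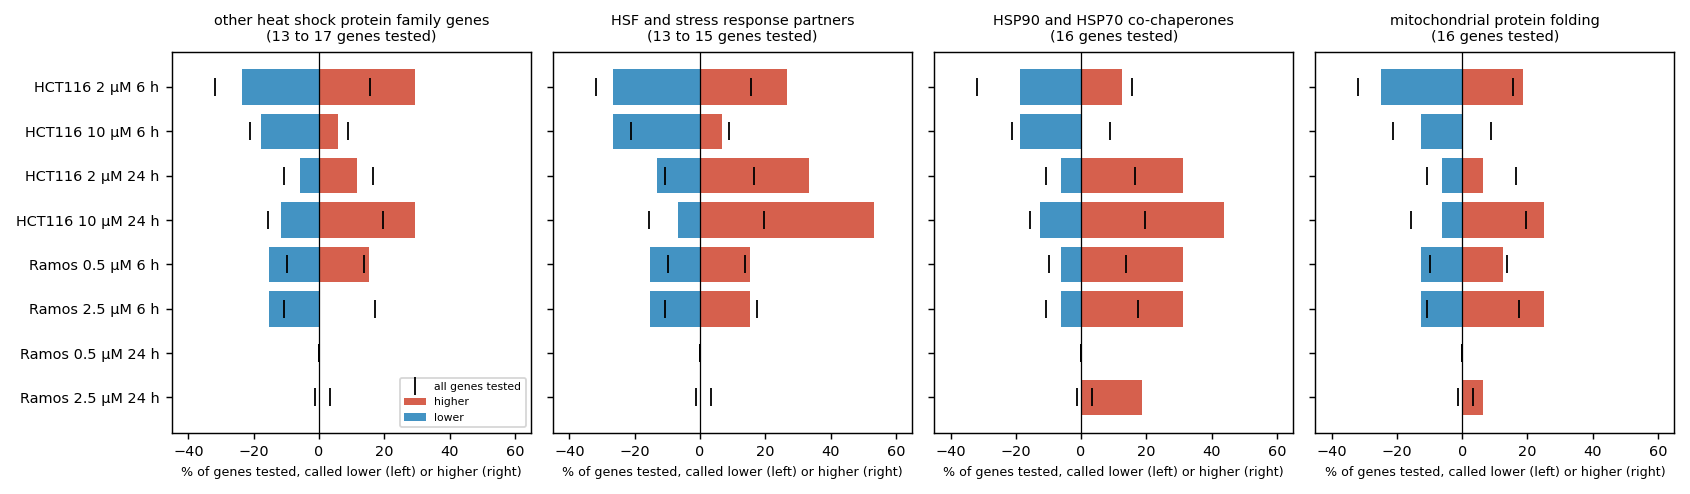
Percent of the tested genes of each of the 4 lists called lower (left of 0) or higher (right of 0) in each comparison with untreated cells, with black ticks at the percent of all genes tested. Stress response partners and co-chaperones in HCT116 at 10 μM for 24 h have 8 and 7 genes called higher, against 19.5% of all genes. The Ramos 0.5 μM 24 h comparison has none, against 0.0146% of all genes.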

How the data were processed

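The authors sequenced total RNA (Illumina TruSeq Stranded Total RNA with Ribo-Zero) from 30 libraries of HCT116 and Ramos cells, and deposited 1 table of RPKM values for 57992 Ensembl genes. The submitters' processing notes name RSEM; the aligner, genome build and annotation are not given in the sources used here. RPKM keep no counts, so the depth is unknown and no counting error is given. No columns of other samples were found.

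Gene symbols and coordinates came from GENCODE 29 (GRCh38), which held 57388 of the IDs. Each comparison was fitted with limma 3.58.1 (R 4.3.3) on log2(RPKM + 0.5), with a trend on mean expression, over the libraries of the groups compared and every gene whose mean RPKM reached 0.5 in them. Changes are on this scale, which understates the change of low genes. The Benjamini-Hochberg threshold was 0.05 over all genes tested, and 2-sided exact permutation tests were run per member. There were 8 comparisons with untreated cells, 4 of time, 4 of dose, 1 between the lines and 2 interactions, 19 in all. The test was tested on simulated data with known changes.

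All 10 members are named, and of the 4 lists at most the 3 genes of lowest adjusted p per comparison, besides counts. The members and lists were chosen with earlier results of these data known. Genes most like a member are those with the highest Pearson r over 15 libraries of a line, among genes other than the 10 members that averaged 2 RPKM or more. All 10 members matched RefSeq promoter windows (GRCh38.p14), searched on both strands for motifs that began before the start. Alternatives, run for the members and the counts over all genes, were pseudocounts of 0.1 and 1, no filter, median-ratio scaling, equal sums of RPKM, a replicate block, all groups in one fit, HSPA1A and HSPA1B summed, and leaving out each library. Equal sums of protein-coding RPKM, and all groups in one fit without replicate 3 of HCT116 10 μM 6 h, were added after seeing the data.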

Additional observations from a re-analysis of the deposited data

Results flagged for a closer look

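The change from untreated cells differed between HCT116 at 2 μM and Ramos at 2.5 μM, by the interaction term, for 3 heat shock genes at 6 h: by −0.71 log2 units for HSPA1B, 0.37 for HSPA8 and 0.90 for HSPE1. At 24 h it differed for 2, by 0.36 for HSPA1B and 0.47 for HSPE1. The 24 h differences did not pass the test with all groups in one fit (adjusted p = 0.300 and 0.354), and were 0.0064 and 0.11 with equal sums of RPKM. With equal sums the HSPA8 difference at 6 h was −0.11. In the main fits HSPA1B fell in HCT116 and rose in Ramos at 6 h, and its change at 24 h was larger in HCT116. HSPE1 had the larger change in HCT116 at both times in those fits. The doses and the use of a transfection reagent differed between the lines with the cells, and their parts were not tested.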

How the results depend on the processing

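Of 52 calls of single members, 444 of 493 values under other settings kept direction and call, 47 lost the call and 2 reversed; leaving out 1 library kept 314 of 342 and lost 28. The reversed values were those of HSPH1 in HCT116 at 2 μM for 6 h (−0.022) and of HSPA8 between the lines at 6 h (−0.11), both with the sum of RPKM made equal, a scaling that moved the median of all genes in the HCT116 comparisons with untreated cells to −0.42, −0.56, −0.10 and −0.15 (2 μM 6 h, 10 μM 6 h, 2 μM 24 h, 10 μM 24 h) and in Ramos to as much as 0.24 (2.5 μM 24 h). The noncoding RNAs RN7SL1 and RN7SK take up to 19.7% of that sum. Members called changed as follows; where no cause is named, the cause was not tested. In HCT116 at 10 μM for 6 h, 0 became 3 with median-ratio scaling, 4 with equal sums (all lower), 1 with all groups in one fit and 3 with all groups less replicate 3. At 2 μM for 24 h, 7 became 3 with equal sums and 2 with all groups, and at 10 μM for 24 h 2 with equal sums. In Ramos at 0.5 μM for 6 h, 2 became 4 with all groups and 4 with equal protein-coding sums, and at 2.5 μM for 6 h 5 with median-ratio scaling and 5 with equal protein-coding sums. At 2.5 μM for 24 h, 0 became 7 with equal sums and 1 with all groups. Between 24 and 6 h, 3 became 5 with median-ratio scaling in HCT116 at 2 μM, 1 became 0 with no filter, median-ratio scaling or equal protein-coding sums, 4 with all groups and 3 with all groups less replicate 3 in HCT116 at 10 μM, and 4 became 2 with equal sums in Ramos at 0.5 μM. Between doses, 0 became 1 (HSPE1) in HCT116 at 6 h with all groups less replicate 3, and 1 became 0 in Ramos at 24 h with no filter or equal protein-coding sums and 4 with equal sums. Between the lines, 3 became 6 with median-ratio scaling and 7 with equal sums at 6 h, and 2 became 4 with a pseudocount of 1 and 0 with all groups at 24 h.

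In 0 of 16 comparisons did every pair of same-numbered replicates deviate together with r over 0.1, so the numbers were treated as names of samples. With 3 libraries per group this rule cannot exclude a pairing. With the replicate block, 39 of 42 calls held; the 3 lost were HSPA8 in HCT116 at 2 μM for 24 h (adjusted p = 0.0621), HSPA1B between 24 and 6 h in HCT116 at 10 μM, where 1 call became 0, and HSP90AA1 between doses in Ramos at 24 h, where 1 became 0.

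Leaving out 1 library gave 5 to 6 calls at 2 μM for 6 h, 0 to 5 at 10 μM for 6 h (5 without its replicate 3), 6 to 7 and 7 at 24 h in HCT116, 2 and 2 to 3 in Ramos at 6 h, 0 in Ramos at 24 h, 0 to 1 between times in HCT116 at 10 μM and 0 to 1 between doses in Ramos at 24 h.

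Over all genes, calls moved by over 1.5 times as follows. In HCT116, 4439 calls at 10 μM for 6 h became 7235 with equal sums, 7354 with all groups less replicate 3 and 7565 without it; 4071 at 2 μM for 24 h became 2282 with no filter and 1113 with all groups; 5220 at 10 μM for 24 h became 2535 with all groups. In Ramos, 3209 at 0.5 μM for 6 h became 2008 with no filter, and 627 at 2.5 μM for 24 h became 84 with no filter, 345 with median-ratio scaling, 5362 with equal sums, 335 with equal protein-coding sums, 197 with the replicate block and 1242 with all groups. At 0.5 μM for 24 h, 2 became 0 to 4. Between times, 1173 in HCT116 at 10 μM became 296 with no filter, 542 with equal protein-coding sums, 256 with the block, 4297 with all groups and 3506 without replicate 3, and with no filter 3462 and 3125 in Ramos became 2307 and 2040. Between doses, 0 in HCT116 at 6 h became 137 with all groups, 3188 with all groups less replicate 3 and 93 without it; 27 at 24 h became 5 to 47; 58 in Ramos at 6 h became 0 to 37; and 579 at 24 h became 65 with no filter, 2567 with equal sums, 366 with the block and 904 with all groups. Between the lines, 6317 at 6 h became 9881 and 2565 at 24 h became 6397 with equal sums, 1238 with the block and 1333 with all groups. The share of calls that were higher between times in HCT116 (75.8% at 2 μM, 73.7% at 10 μM) was 50.3% and 42.7% with median-ratio scaling and 92.4% and 92.2% with equal sums.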

Other observations

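The genes whose pattern was most like that of a member, by Pearson r of log2(RPKM + 0.5) over the 15 libraries of a line, are given as a description; libraries of one group share that group's level. In HCT116 they were SCN8A, CLK3 and RCOR2 for HSPA1B (r = 0.970, 0.968 and 0.967), MAZ for HSPA8 (0.980), PIR for DNAJB1 (0.907), SMIM30 and RWDD1 for HSPE1 (0.984 and 0.977), MTREX for HSPD1 (0.963) and SF3B2 for HSP90AB1 (0.973). Without replicate 3 of 10 μM for 6 h, over 14 libraries, the r of these HCT116 pairs was 0.957, 0.943 and 0.945 for HSPA1B with SCN8A, CLK3 and RCOR2, 0.974 for HSPA8 with MAZ, 0.905 for DNAJB1 with PIR, 0.965 and 0.948 for HSPE1 with SMIM30 and RWDD1, 0.912 for HSPD1 with MTREX and 0.891 for HSP90AB1 with SF3B2. In Ramos the most similar genes were ARHGAP4 for HSPA1B (0.959), PAXX for DNAJB1 (0.977), GNL3 for HSPD1 (0.968) and BTK for HSP90AB1 (0.944). The 10 members were left out of this ranking and could not appear in it. None of the genes named here was a heat shock protein gene outside the 10. Among the members themselves, the 45 pairs had a median r of 0.457 (−0.635 to 0.933) in HCT116, or 0.447 (−0.262 to 0.870) without replicate 3 of 10 μM for 6 h, and 0.0415 (−0.736 to 0.898) in Ramos.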
